A study of Bos indicus with 12 samples.

Results

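The stretches of cattle chromosome 18 around 2 immune genes, *C5AR2* and *NLRC5*, were described at the level of single cytosines. Each neighbourhood reached 250 kb to either side of 1 cytosine, the site that the study pairs with the gene as its closest one. The sites were chosen because they differed in methylation between the Tough and Tender groups, so their values are given as a description and no test is drawn from them. The *C5AR2* neighbourhood held 943 covered cytosines and the *NLRC5* neighbourhood 133, together 1076 of the 635469 cytosines that were covered in all 12 animals.

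Reduced representation bisulfite sequencing (RRBS) was applied to *longissimus thoracis* muscle taken at slaughter from Nelore (*Bos indicus*) steers, with 1 library per animal. The 6 Tough animals had higher shear force and lower tenderness, and the 6 Tender animals had lower shear force and higher tenderness. Per the study's methods, both groups were the extremes of a larger population ranked by breeding value for shear force, all animals were fed alike in feedlots, and the sires within a group differed. The labels and the methods give different days of aging for the shear force measurement, and neither gives the age of each animal.

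Methylation of a CpG is read as the percent of reads in which the cytosine escaped bisulfite conversion. RRBS reads cytosines close to the cutting sites of *MspI*, so it samples CpG-dense DNA more than the rest. CpG-dense gene starts are commonly unmethylated in mammals, while most other CpGs are methylated.

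*C5AR2* encodes a receptor for the C5 fragment that complement activation releases, and it differs from its neighbour *C5AR1*, the classical receptor for the same fragment, in that it does not couple to G proteins in the usual way. *NLRC5* encodes a member of the NLR family that enters the nucleus and drives transcription of MHC class I genes, and interferon gamma is known to induce it. Both genes are best known from leukocytes, which muscle tissue holds in its vessels and connective tissue along with its fibres. Muscle was sequenced in bulk, so a different mix of cells and a different methylation within 1 cell type cannot be told apart in any value below. The labelled tissue could not be checked against promoters of marker genes, and complement and MHC class I genes were not analysed here, because no annotation of the files' build was used.

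The reads of these *Bos indicus* animals had been aligned to ARS-UCD1.2, a *Bos taurus* genome. A T in an animal's own DNA in place of such a cytosine is counted as unmethylated, and sequence variants were not analysed here. Gene coordinates on that build were not used here, and gene order was read from RefSeq on a *Bos indicus* assembly, NIAB-ARS_B.indTharparkar_mat_pri_1.0. There, *C5AR2* lay between *C5AR1* and *DHX34*, a helicase of nonsense-mediated decay. Beyond *C5AR1* came *INAFM1*, *CCDC9*, *BBC3*, which promotes apoptosis, and *SAE1*, a subunit of the SUMO-activating enzyme. Beyond *DHX34* came the homeobox gene *MEIS3*, the sodium-calcium exchanger *SLC8A2*, *KPTN* and *NAPA*, which acts in membrane fusion. *NLRC5* lay between *HERPUD1*, a gene of the endoplasmic reticulum stress response, and *CPNE2*, with the kidney cotransporter *SLC12A3* and the nucleoporin *NUP93* on the side of *HERPUD1* and *PSME3IP1*, *RSPRY1*, *ARL2BP* and *PLLP* on the side of *CPNE2*. Which of these genes fall within the 250 kb was not analysed here.

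Depth was similar in both neighbourhoods. Before the authors' scaling, the median number of reads per cytosine was between 21 and 41 in the 12 animals for *C5AR2* and between 20 and 40 for *NLRC5*. Reads summed over all cytosines of the table ranged from 14521826 to 23470740 per animal. Intervals given below cover counting error only, because copies of 1 molecule cannot be recognised among the reads.

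The *C5AR2* site is the cytosine at chr18:54339633 on the plus strand, which the study's annotation places in an intron. In Tough animals its methylation was 81.0% at the lowest, 87.8% at the median and 100% at the highest. In Tender animals it was 50.0%, 56.9% and 69.6%. All Tough animals were thus above all Tender animals, with 2 Tough animals, numbers 4 and 6, fully methylated. This lack of overlap was found at 0.0965% of all cytosines of the table, and nothing is read from it here because the site was chosen on this contrast.

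The group means at the *C5AR2* site were 90.2% ± 8.01 in Tough and 58.1% ± 6.89 in Tender (SD, n = 6 each). Pooled over reads, the levels were 90.7% and 58.3%, and Tender minus Tough was -32.4 percentage points. A logistic fit across all cytosines gave an adjusted p-value of 0.000275. On the scaled reads, the variance between animals of a group was 1.07 times that of counting alone. The site rested on 12 to 32 reads per Tough animal and 11 to 22 per Tender animal. With its 24 reads, for example, Tough 3 had a 95% Wilson interval of 69.0% to 95.7%, and Tender 9 with 11 reads one of 28.0% to 78.7%.

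The *NLRC5* site is the cytosine at chr18:25004341 on the minus strand, which the study's annotation places between genes. Its methylation was 52.9% at the lowest, 71.9% at the median and 90.9% at the highest in Tough animals. In Tender animals the values were 27.5%, 42.0% and 57.7%. The groups overlapped here, since Tender 10 at 57.7% was above Tough 1 at 52.9%, and every other Tender animal was below every Tough animal.

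Means at the *NLRC5* site were 70.9% ± 13.3 in Tough and 41.8% ± 10.3 in Tender (SD, n = 6 each). The pooled levels were 69.5% and 39.9%, a difference of -29.6 percentage points, with an adjusted p-value of 0.0356 in the logistic fit. Animals differed more from each other here than at the *C5AR2* site, and their variance within groups was 2.47 times that of counting alone. Reads per animal numbered 27 to 54 in Tough and 21 to 43 in Tender. Tender 11 had the lowest level, with a 95% Wilson interval of 16.1% to 42.8%, and Tough 3 the highest, with 75.1% to 96.7%.

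**Figure D1:**
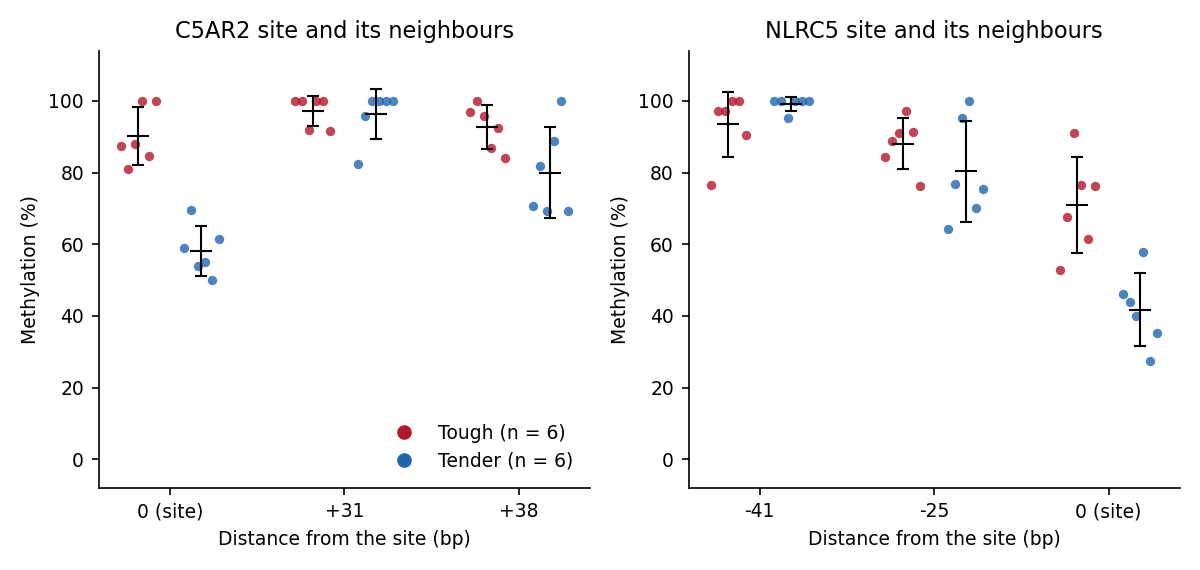
Methylation (%) of single animals at each site and at the covered cytosines within 50 bp of it, by distance from the site in bp. Points are animals, Tough in red and Tender in blue (n = 6 each), and black bars are the mean ± SD. Tough and Tender are apart at both sites (distance 0), with 1 Tender animal above 1 Tough animal at *NLRC5*, while the groups overlap at each of the 4 neighbours.

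Both sites were lower in Tender by a similar amount, but from different levels. The *C5AR2* site was almost fully methylated in Tough, and the *NLRC5* site was at an intermediate level in both groups. Across the whole table, 121 cytosines, or 0.0190%, met both criteria of the study, an adjusted p-value under 0.05 and a pooled difference above 25 percentage points, and each neighbourhood held 1 of them, its site. The cytosine nearest to the p-value limit had a difference of -25.8 points with an adjusted p-value of 0.0499 on the inside and 25.04 points with 0.0510 on the outside. By difference, the nearest were 25.01 points inside and -24.93 points outside.

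The call at both sites depended on the test. With an F-test in place of the chi-square test the adjusted p-value was 0.806 at each site, and limma on log2 ratios gave 0.898 for *C5AR2* and 0.938 for *NLRC5*. The adjustment gives many cytosines the same value. The F-test gave 0.806 also at 54339671 and 25004316, within 50 bp of the sites, and limma gave 0.938 also at 24928906. These values therefore do not set the sites apart from other cytosines. On the reads before scaling it was 0.00143 and 0.0751, and with the bisulfite conversion group as a covariate 0.000604 and 0.0523, so that in both of these fits *C5AR2* stayed under 0.05 and *NLRC5* did not. Without any 1 animal, the adjusted p-value of the *C5AR2* site was between 4.56e-05 and 0.00209. That of the *NLRC5* site passed 0.05 without Tough 2 (0.0673), Tough 4 (0.0729), Tough 6 (0.105), Tender 7 (0.0561), Tender 8 (0.0609), Tender 9 (0.0816), Tender 11 (0.105) or Tender 12 (0.122).

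Bisulfite conversion differed between libraries by the study's spike-in controls, and the difference at each site was recomputed within the 5 animals of higher and the 7 of lower conversion. At *C5AR2* the mean of Tender minus that of Tough was -28.7 points within higher conversion (2 Tender and 3 Tough animals) and -34.5 points within lower conversion (4 and 3). At *NLRC5* it was -32.7 and -28.7 points. These values describe sites chosen for this difference, and at *C5AR2* no split of the animals could change its sign. Coverage was not used to choose the sites and could be tested. At *C5AR2* the mean was 21.0 ± 6.63 reads in Tough and 15.8 ± 4.40 in Tender, and at *NLRC5* 40.5 ± 12.4 and 30.5 ± 9.77 (SD, n = 6 each). In an exact two-sided permutation test the p-values were 0.156 and 0.154, or 0.156 for each when adjusted over both, with fewer reads in Tender at either site. The part of this coverage in the methylation differences was not tested.

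The differences were smaller at covered neighbours than at the sites. The sites and the other called cytosines were chosen for a large difference and their neighbours were not. A smaller difference at neighbours therefore follows from the choice, and nothing is read from it. Of the 121 cytosines that met both criteria, 105 had a covered cytosine within 50 bp on their strand. Among those, the mean difference of the neighbours was at the median 23.2% of that of the site (quartiles 8.29% and 47.6%). It was 17.7% at *C5AR2* and 0.668% at *NLRC5*. A lower percent was found at 40 and at 13 of the called cytosines. At *C5AR2* 2 further cytosines on the same strand were covered within 50 bp. The nearer one, 31 bp away at 54339664, was at 97.3% ± 4.22 in Tough and 96.3% ± 7.07 in Tender, a pooled difference of -0.805 points. The farther one, 38 bp away at 54339671, was at 92.7% ± 6.15 and 80% ± 12.7, a pooled difference of -10.7 points with an unadjusted p-value of 0.0494 and an adjusted one of 0.602 in the logistic fit. In 4 Tender animals, numbers 7, 8, 9 and 12, this cytosine was between 69.2% and 81.8%, below all Tough animals, while Tender 11 was at 100%. The next cytosines, 4 of them 900 to 941 bp away, averaged 92.8% ± 2.75 in Tough and 94.1% ± 2.69 in Tender.

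At *NLRC5* the covered neighbours lay 25 and 41 bp away on the same strand. At the nearer one, 25004316, Tough animals were at 88.1% ± 7.14 and Tender animals at 80.3% ± 14.2, a pooled difference of -6.77 points with an adjusted p-value of 0.736, which was -4.41 points without Tender 7, -4.47 without Tender 11 and -10.4 without Tender 9. The other, 25004300, went the opposite way, with 93.5% ± 9.06 in Tough and 99.2% ± 1.94 in Tender, a pooled difference of 6.37 points with an adjusted p-value of 0.625, which was 2.66 points without Tough 1. Tough 1 was the lowest animal at 25004300, at 76.5%, and it was also the lowest Tough animal at the site itself. No cytosine was covered between 51 bp and 1 kb from the site. The next covered one was a single cytosine 2864 bp away, at a mean of 76.3%. Beyond it, a cluster of 15 cytosines 5152 to 5692 bp away was unmethylated at a mean of 1.49%.

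The cytosine of the opposite strand was not among the covered ones at either site.

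The study's regions were windows of 100 bp. In the window that holds the *C5AR2* site, from 54339601 to 54339700 with 3 cytosines, Tough animals ranged from 91.9% to 95.8% and Tender animals from 70.6% to 83.8%. The pooled difference was -14.6 points, and in the window of the *NLRC5* site, from 25004301 to 25004400 with 2 cytosines, it was -17.8 points. Both windows hold the site itself, so these values restate the choice of the sites, and both differences are below the 25 points the study required. None of the 253 windows around *C5AR2* and none of the 71 around *NLRC5* met both criteria, against 0.0217% of all windows. At an unadjusted p-value under 0.05 in the logistic fit there were 25 and 8 windows, or 9.88% and 11.3%, against 8.76% of all windows. Apart from the window with the site, 2 windows around *C5AR2* had an adjusted p-value under 0.05, against 0.288% of all windows. Each holds a single cytosine, 54297313 (0.0187 when adjusted over windows) and 54256845 (0.0361).

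The 2 neighbourhoods were unlike in their overall make-up. Around *C5AR2*, 563 cytosines (59.7%) had a mean methylation under 5%, against 49 (36.8%) around *NLRC5* and 52.4% of the whole table. Intermediate levels from 20% to 80% were found at 15.4% of the cytosines around *C5AR2* and at 27.1% around *NLRC5*, against 17.8% of the table. Levels over 90% were found at 8.48% and 11.3%, both below the 13.6% of the table. The mean over all cytosines was 23.7% around *C5AR2* and 38.6% around *NLRC5*, on either side of the 29.7% of the table.

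**Figure D2:**
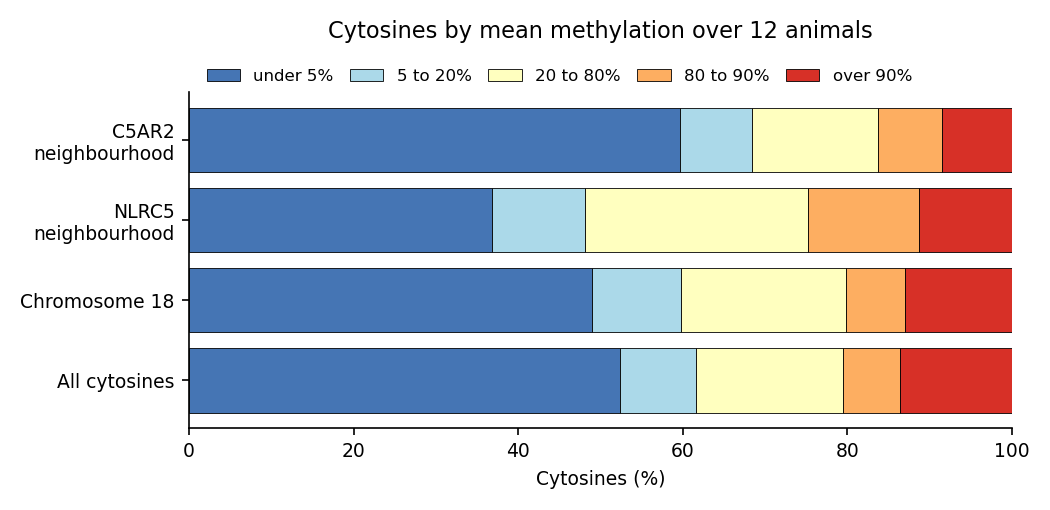
Percent of cytosines in 5 classes of mean methylation over 12 animals, for both neighbourhoods, chromosome 18 and all cytosines. The class under 5% holds 59.7% of the cytosines around *C5AR2*, 36.8% around *NLRC5*, 49.0% on chromosome 18 and 52.4% in all.

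Cytosines no more than 200 bp apart were joined into clusters, which gave 122 clusters around *C5AR2* and 46 around *NLRC5*. Around *C5AR2* 26 clusters had 10 cytosines or more, and 18 of those had a mean under 5%. Around *NLRC5* there was 1 such cluster, the unmethylated one 5152 bp from the site, and 19 of the 46 clusters were single cytosines. Counted by clusters, the shares under 5% were 25.4% and 19.6%, closer to each other than the shares of cytosines.

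The largest cluster around *C5AR2* ran from 54547641 to 54548712, with 94 cytosines at a mean of 1.12% and animals between 0.481% and 1.66%. Next in size were 47 cytosines from 54549720 to 54550321 at 1.49% and 41 from 54486956 to 54487416 at 0.992%. With the cluster that lies between them, the first and the second of these formed an unmethylated stretch of 159 cytosines over 2681 bp, about 208 kb from the site. In all there were 12 unmethylated stretches around *C5AR2* and 5 around *NLRC5*. A stretch is a run of consecutive clusters with a mean under 5%, whatever the gap between them, so it can span DNA that was not read. The longest held 73 cytosines over 21889 bp around *C5AR2* and 15 over 39764 bp around *NLRC5*. All of those around *C5AR2* were more than 50 kb from the site, the nearest being 56182 bp before it and 57170 bp after it, whereas the nearest at *NLRC5* was 5152 bp away.

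Dense clusters were not always unmethylated. Chosen after their values were seen, 30 cytosines from 54093829 to 54094214 around *C5AR2* had a mean of 89.8%, with 89.3% in Tough and 90.3% in Tender, and 11 from 54238236 to 54238289 had 89.2%. Around *NLRC5* the clusters next in size after the 15 cytosines were 9 from 24966869 to 24967004 at 1.94% and 7 from 24969760 to 24969992 at 39.1%. In that last cluster animals ranged from 28.2% to 49.8%, with 39.7% ± 6.95 in Tough and 38.5% ± 7.03 in Tender.

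**Figure D3:**
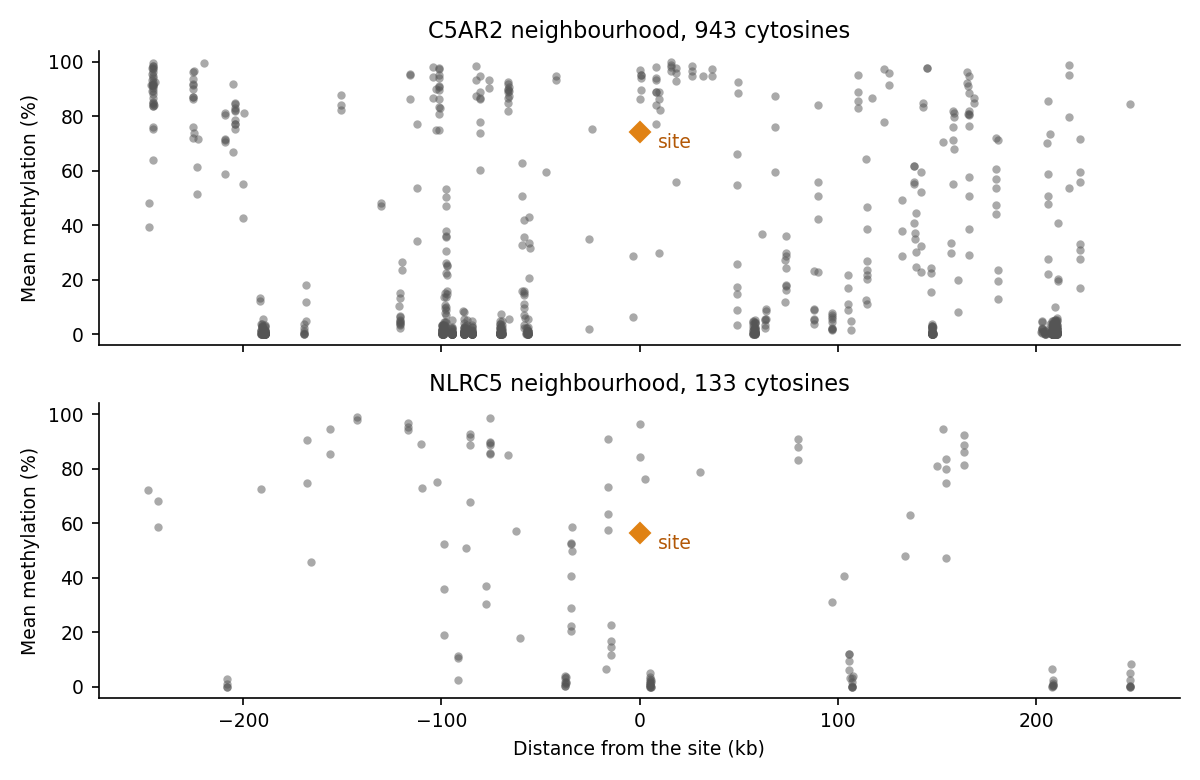
Mean methylation (%) over 12 animals of every covered cytosine, by distance from the site in kb, around *C5AR2* (943 cytosines, top) and *NLRC5* (133 cytosines, bottom). The orange diamond is the site. Dense columns at the bottom of the upper panel are the unmethylated clusters, all more than 50 kb from the *C5AR2* site, while 15 unmethylated cytosines lie 5152 to 5692 bp from the *NLRC5* site.

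The clusters on either side of the *C5AR2* site differed in level. The cluster of 7 cytosines that follows it at 8065 to 8168 bp was at 91.9% ± 2.30 in Tough and 86.6% ± 3.01 in Tender, and the pair of cytosines 3542 to 3578 bp before it was at 16.9% ± 5.59 and 18% ± 2.88. Over the 9 cytosines between 1 and 10 kb from the site, the pooled difference was negative at 6 and positive at 3, between -12.1 and 2.57 points, and 1 had an unadjusted p-value under 0.05. The cytosines from 10 to 50 kb away, 33 in number, had 17 negative and 16 positive differences.

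Levels also varied among the clusters nearest to the *NLRC5* site. Before it, 4 cytosines 15755 to 15870 bp away were at 68.7% ± 5.11 in Tough and 74.1% ± 6.0 in Tender, and 4 others 14308 to 14355 bp away at 16.0% ± 4.20 and 16.9% ± 4.67. After it, a single cytosine 2864 bp away was at 73.6% ± 14.8 and 79.0% ± 9.36. None of these clusters had the lower level in Tender that the site had. Among the 16 cytosines between 1 and 10 kb from the site, pooled differences lay between -2.87 and 10.5 points.

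Averaged over a whole neighbourhood without its site, the groups were close. Per animal, the mean methylation around *C5AR2* was 23.5% ± 0.444 in Tough, from 22.7% to 24.1%, and 23.8% ± 0.443 in Tender, from 23.2% to 24.5%. Around *NLRC5* it was 38.1% ± 1.68 in Tough, from 36.4% to 41.1%, and 38.8% ± 0.976 in Tender, from 38% to 40.7%. The differences, 0.304 and 0.746 points, did not reach the SD in Tough or in Tender, and the ranges overlapped in both neighbourhoods. With cytosines weighted by their reads the *C5AR2* difference was 0.665 points, and the *NLRC5* difference was 1.33 points when every animal had to have at least 20 reads.

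In the logistic fit, 89 of 943 cytosines around *C5AR2* (9.44%) and 15 of 133 around *NLRC5* (11.3%), counting the sites, had an unadjusted p-value under 0.05, against 8.29% of all cytosines. The share around *C5AR2* was near that background, and the share around *NLRC5* was above it. Around *C5AR2* 52 of the 89 were higher in Tender, or 5.51% of the neighbourhood against 4.79% of all, and 37 were lower, or 3.92% against 3.50%. Around *NLRC5* 13 were higher, or 9.77% against the same 4.79%, and 2 were lower, or 1.5% against 3.50%, of which 1 is the site.

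Under other fits the share around *C5AR2* stayed near that of all cytosines. It was 4.88% (46 cytosines) against 4.93% with the F-test, 4.77% (45) against 4.91% with limma and 7.53% (71) against 7.51% with the conversion covariate. Around *NLRC5* it was 8.27% (11), 9.77% (13) and 15.8% (21) in the same fits, above the background in each. Neighbouring cytosines share reads and fragments, and whether the *NLRC5* share differs from the background was not tested.

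**Figure D4:**
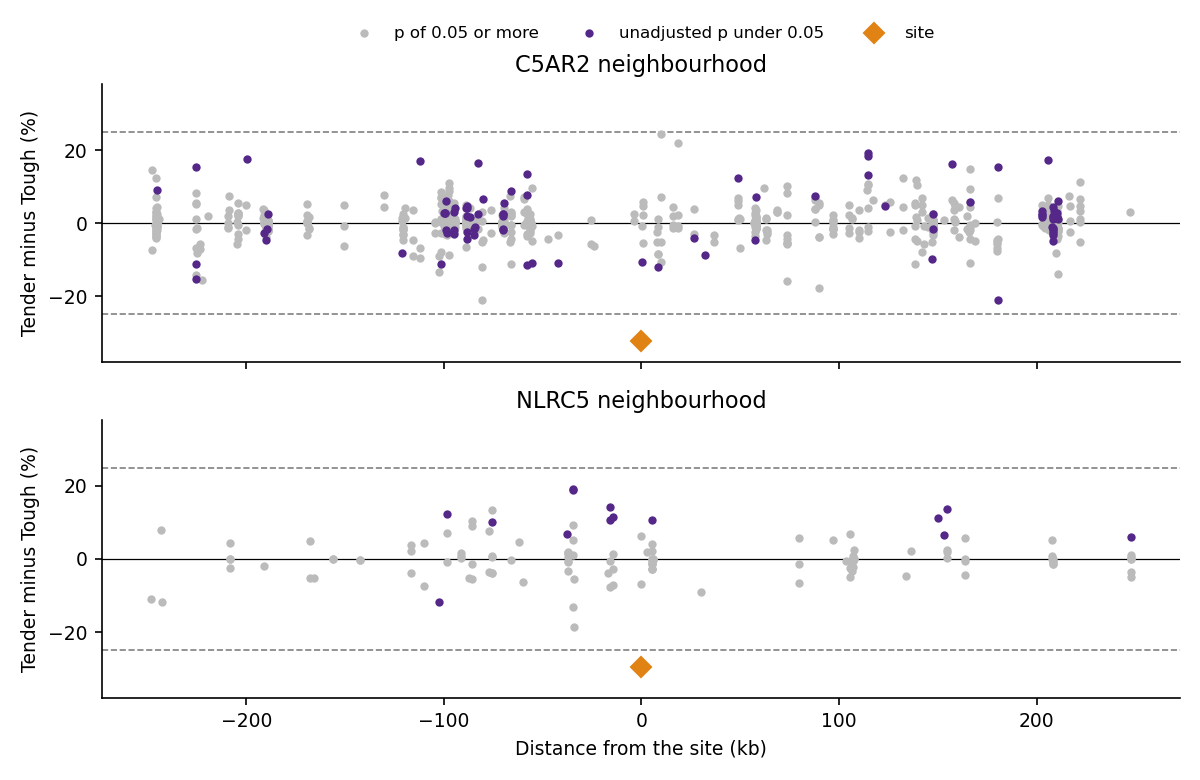
Pooled difference in methylation, Tender minus Tough in percentage points, at every covered cytosine by distance from the site in kb. Purple points have an unadjusted p-value under 0.05, grey points do not, the orange diamond is the site and dashed lines mark 25 points in either direction. Both sites lie below the lower dashed line, at -32.4 and -29.6 points, and no other cytosine of the neighbourhoods passes either line.

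Besides the site, 1 cytosine around *C5AR2* had an adjusted p-value under 0.05, and none did around *NLRC5*, against 0.135% of all cytosines. It lay at 54297313 on the minus strand, 42320 bp before the site. Tough animals were between 95.2% and 100% there, with a median of 100%, and Tender animals between 82.1% and 100%, with a median of 85.9%. Tender 12, fully methylated, was the only Tender animal not below all Tough animals. The pooled difference was -11 points with an adjusted p-value of 0.0302, well under the difference the criteria ask for.

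The call at 54297313 depended on the fit. Its adjusted p-value was 0.806 with the F-test and 0.988 with limma, values that other named cytosines shared. It was 0.0597 on the reads before scaling, 0.0429 when the conversion group was added to the fit and 0.00165 without the overdispersion factor. Leaving out 1 animal moved it between 0.00629 and 0.102, and it stayed under 0.05 in 3 of the 12 fits, those without Tough 2, Tender 7 or Tender 12. It passed 0.05 without Tough 1 (0.0517), Tough 3 (0.0735), Tough 4 (0.0654), Tough 5 (0.0725), Tough 6 (0.0614), Tender 8 (0.102), Tender 9 (0.0753), Tender 10 (0.0678) or Tender 11 (0.0574).

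Of the cytosines around *C5AR2* with the next smallest p-values, 3 were higher in Tender and 1 was lower, and none had an adjusted p-value under 0.05. At 54256845, 82788 bp before the site, Tough animals had a median of 79.1% (69.6% to 88.9%) and Tender animals 96.1% (87.5% to 100%). Tough animals fell into 3 near 70% and 3 near 88%, and Tender 9 at 87.5% was the only Tender animal within their range. The pooled difference was 16.5 points with an adjusted p-value of 0.0552 in the logistic fit. Leaving out 1 animal moved it between 0.00293 and 0.168. It was under 0.05 in 3 of 12 such fits, those without Tough 1 (0.0302), Tough 5 (0.0203) or Tender 9 (0.00293). With the F-test it was 0.806 and with limma 0.944.

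At 54454152, 114519 bp after the site, methylation was low in Tough, with a median of 7.55% (5.26% to 25%), and higher in Tender, with 30.6% (13.5% to 38.8%). The pooled difference was 18.5 points with an adjusted p-value of 0.105 in the logistic fit. Leaving out 1 animal moved it between 0.0165 and 0.235. It was under 0.05 in 3 of 12 such fits, those without Tough 4 (0.0472), Tough 5 (0.0384) or Tender 10 (0.0165). With the F-test it was 0.806 and with limma 0.988. At 54496717, 157084 bp after the site, Tender animals were close together, between 38.5% and 48.6%, and Tough animals spread from 6.25% to 38.7%, with an adjusted p-value of 0.234. At 54114129, 225504 bp before the site, 5 Tough animals were at 100% and Tough 4 at 92.9%, while Tender animals ranged from 76.9% to 100%. Its adjusted p-value was 0.214 in the logistic fit, 0.806 with the F-test and 0.988 with limma. Leaving out 1 animal moved the first of these between 0.0358 and 0.373. It was under 0.05 in 1 of 12 such fits, that without Tough 4.

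Around *NLRC5* the 5 cytosines with the smallest p-values after the site were all higher in Tender, and none had an adjusted p-value under 0.05. At 24928906, 75435 bp before the site, Tough animals were between 81.8% and 88.1% and Tender animals between 89.1% and 100%. The groups did not overlap there, the only such case around *NLRC5*, where the site itself overlaps. As 1 of 133 cytosines it makes up 0.752% of the neighbourhood, against 0.0965% of all cytosines, and nothing is read from this share. The pooled difference was 10.1 points with an adjusted p-value of 0.218.

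At 24990033, 14308 bp before the *NLRC5* site, Tough animals were between 0% and 12.5%, with a median of 5.43%, and Tender animals between 11.8% and 25%, with a median of 15.9%. The pooled difference was 11.4 points with an adjusted p-value of 0.131. At 24969553, 34788 bp before the site, the medians were 41.7% in Tough and 65.4% in Tender, with overlapping ranges of 33.3% to 61.5% and 39.5% to 75.4%. Its adjusted p-value was 0.358 in the logistic fit, 0.806 with the F-test and 0.988 with limma. Leaving out 1 animal moved the first of these between 0.0463 and 0.547. It was under 0.05 in 1 of 12 such fits, that without Tender 9.

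The remaining pair of cytosines lay in clusters that were unmethylated on average. At 25009738, within the cluster of 15 cytosines after the *NLRC5* site, no Tough animal had a methylated read, 0 of 129 reads over the 6 animals, which allows a level of up to 2.33%. Of the Tender animals, 3 also had none, and Tender 7, Tender 10 and Tender 12 were at 21.4%, 32.3% and 5.41%. At 24966869 no methylated read was found in Tough either, 0 of 111 reads, which allows up to 2.70%, and 4 Tender animals, numbers 7, 9, 10 and 12, were between 3.23% and 23.1%. Without Tender 10, the pooled difference fell from 10.5 to 5.71 points at 25009738 and from 6.94 to 4.08 points at 24966869. The adjusted p-values were 0.317 and 0.346.

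**Figure D5:**
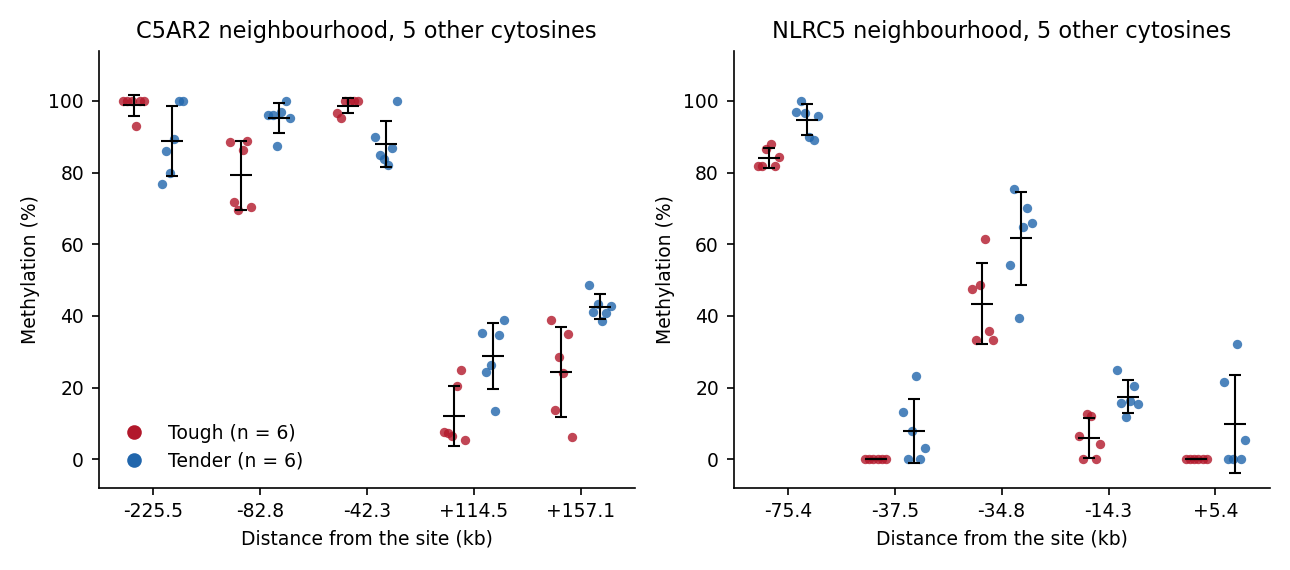
Methylation (%) of single animals at the 5 cytosines of each neighbourhood with the smallest p-values other than the site, by distance from the site in kb. Points are animals, Tough in red and Tender in blue (n = 6 each), and black bars are the mean ± SD. The groups overlap at each of them except the one 75.4 kb before the *NLRC5* site, and all 5 of *NLRC5* have the higher mean in Tender.

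The most variable clusters were compared by group. Among clusters of at least 3 cytosines around *C5AR2*, the largest SD between animals was found for 3 cytosines from 54479258 to 54479291. Their mean was 33.1% with an SD of 15.2 over 12 animals, from 5.88% in Tough 2 and 7.31% in Tender 12 to 60.6% in Tender 7. The groups were at 31.6% ± 14.6 and 34.5% ± 17.1.

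The clusters next in variability were 3 cytosines from 54471946 to 54471987, at 38.7% with an SD of 13.4 and animals between 16.7% and 58.9%, and 3 from 54550564 to 54550599, at 26.9% with an SD of 12.1 and animals between 9.89% and 45.3%. Tough 6 was the highest animal in both, and the groups overlapped in each, at 35.5% ± 14.0 and 41.8% ± 13.3 in the first and 30.5% ± 12 and 23.2% ± 12.1 in the second. Around *NLRC5* the most variable were 3 cytosines from 24905819 to 24905858, at 35.8% with an SD of 9.40 (33.9% ± 10.8 in Tough and 37.8% ± 8.24 in Tender), the cluster of the site itself with an SD of 8.92, lower in Tender as the site is, and 4 cytosines from 24918691 to 24918739, at 85.2% with an SD of 7.37 (83.9% ± 10.2 and 86.4% ± 3.48). In the last of these Tough 3 was at 64.9% and all other animals were between 82.0% and 93.1%.

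Single cytosines can vary even more. Chosen after its values were seen, the cytosine at 54358018, 18385 bp after the *C5AR2* site, ran from 0% in Tough 1 to 100% in Tough 6, with Tender animals between 43.8% and 97.9%. Its 3 covered neighbours within 27 bp had group means between 91.2% and 98.7%. Whether the animals differ in DNA sequence at this cytosine was not tested. It was the only cytosine around *C5AR2* whose animals reached from 5% or below to 95% or above, 0.106% of the neighbourhood against 0.360% of the table, and none was found around *NLRC5*. The larger differences of the *C5AR2* neighbourhood, apart from the site, included this cytosine with 21.8 points and the one at 54349649 with 24.4 points. Their unadjusted p-values in the logistic fit were 0.218 and 0.200, with variances within groups of 11 and 15.2 times that of counting.

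The variance within groups, relative to that of counting, was larger around *NLRC5*. The median of this ratio was 1.54 over the cytosines around *C5AR2*, 2.17 around *NLRC5* and 1.59 over the table. Among cytosines of intermediate methylation the medians were 2.43, 2.60 and 2.59. Where both strands of a CpG were covered, they were mostly close in level. The median absolute difference was 0.640 points over 160 pairs around *C5AR2* and 0.853 points over 13 pairs around *NLRC5*, and the largest was 11.9 points in each. In Tender minus Tough, the strands of a pair were up to 20.7 points apart around *C5AR2* and up to 14.0 around *NLRC5*.

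The order of animals was not the same at both sites. Tough 6 and Tough 4 were the highest at *C5AR2*, both at 100%, and were at 76.2% and 76.5% at *NLRC5*, where Tough 3 was the highest at 90.9%. Tender 11 was the lowest animal at both sites, with 50.0% and 27.5%. Over the 6 Tough animals Spearman's rho between the sites was 0.58, and over the 6 Tender animals 0.31, with Pearson's r of 0.36 and 0.23, all given as a description of animals that share their libraries across both sites.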

How the data were processed

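Muscle DNA of 12 Nelore steers, 6 Tough and 6 Tender, was measured by RRBS. Per the labels, the authors used FastQC 0.10.1, Trim Galore 0.4.1, Bismark 0.23.0, the build ARS-UCD1.2 and methylKit 1.8.1 in R 3.5.1. Cytosines under 10 reads or above the 99.9th percentile of coverage had been dropped, as had those missing in any animal. Each deposited value is a score, because the authors had scaled the coverage of each animal (by 1 to 1.27) and rounded the scaled methylated and unmethylated reads. The tests were planned for counts, and the planned logistic model, which methylKit fits to such values, was kept. Reads before scaling were recovered for all 7625628 values, with 0 not returned exactly.

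Percent methylation is 100 × methylated over methylated plus unmethylated scaled reads. Per cytosine, strands apart, a logistic regression on group was fitted, its deviance was divided by McCullagh and Nelder's overdispersion factor (at least 1), and the quotient was tested against chi-square. P-values were adjusted by Benjamini-Hochberg over 635469 cytosines, or over 193249 windows of 100 bp. Differences are Tender minus Tough. Groups were taken from the labels. Conversion groups (5 higher, 7 lower) came from the study's spike-in controls, matched by sample number. Named are the sites, covered cytosines within 50 bp, those with an adjusted p-value under 0.05, the 5 others with the smallest p-value per neighbourhood, and the 3 clusters with the most cytosines and the 3 most variable ones. The members and lists were chosen with earlier results of these data known. Fits were tested on simulated data. Python 3.11.15, numpy 2.4.6, pandas 2.3.3, scipy 1.17.1, matplotlib 3.10.9, R 4.3.3 and limma 3.58.1 (log2 ratios, pseudocount 1) were used. Alternatives were an F-test, unscaled reads, a conversion covariate, limma, no overdispersion factor, at least 20 reads, other weightings and leaving out each animal. No sequence is shown, and gene expression was not analysed here.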

Additional observations from a re-analysis of the deposited data

Results flagged for a closer look

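Of 60 groups of 6 animals examined (named cytosines, named clusters and the neighbourhood means), 4 held a value far from the others of its group by Dixon's criterion, which chance gives in about 1 of 20 groups. At 54339664, 31 bp from the *C5AR2* site, Tender 7 was at 82.4% while the other Tender animals were between 95.7% and 100%. At 54114129 around *C5AR2*, Tough 4 was at 92.9% and the other Tough animals at 100%. At 25004300, 41 bp from the *NLRC5* site, Tender 9 was at 95.2% and the other Tender animals at 100%. At 54114129 and at 25004300 the others of the group are tied at 100%, so that any lower value meets the criterion. Before scaling, 10 of 11 reads were methylated in Tough 4 at the former and 33 of 35 in Tender 9 at the latter. The mean over the *NLRC5* neighbourhood without its site was 40.7% in Tender 10, against 38% to 38.9% in the other Tender animals.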

How the results depend on the processing

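The difference at each site stayed negative under every alternative run. The sites were chosen for this difference, so its sign is a description only. At *C5AR2* no choice of animals could change the sign, since all Tough animals were above all Tender animals. At *C5AR2* the difference was -41.5 points over the 4 animals with at least 20 reads there. Only 1 of them was a Tender animal, Tender 11, the lowest at the site with 50.0%, so this is no comparison of groups. Without 1 animal the difference was between -35.4 and -30.2 points at *C5AR2*, against -33.4 to -26.6 points at *NLRC5*. The count of cytosines with an unadjusted p-value under 0.05 around *C5AR2* was 46 with the F-test, 45 with limma, 184 without the overdispersion factor (19.5% against 19.1% of all cytosines), 25 of 257 with at least 20 reads (9.73% against 8.86%), and 69 to 98 without 1 animal. Around *NLRC5* it was 35 without the overdispersion factor (26.3%), 3 of 29 with at least 20 reads (10.3%), 21 with the conversion covariate (15.8% against 7.51%), and 12 to 19 without 1 animal. The smaller counts with at least 20 reads come with fewer cytosines tested, and the other causes were not tested. The share of unmethylated cytosines around *C5AR2* was 64.8% at a limit of 10%, 63.8% with at least 20 reads and 25.4% as a share of clusters, and around *NLRC5* 41.4%, 20.7% and 19.6%. The difference of the neighbourhood means kept its sign, between 0.143 and 0.440 points at *C5AR2* and between 0.370 and 1.36 points at *NLRC5* without 1 animal, 0.665 points at *C5AR2* weighted by reads and 1.33 points at *NLRC5* with at least 20 reads. At 54339664 the difference of -0.805 points ran from -1.95 to 1.8 points without 1 animal, and changed sign without Tough 1 (0.0346) and without Tender 7 (1.8).

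No paired analysis was possible because the groups share no replicate number. Merging strands gave no value at the sites, since the opposite strand was not covered. With 11 to 54 reads per animal at the sites, counting error alone is wide, and CpGs away from the cutting sites of *MspI* were not read.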
